A study of Rattus norvegicus with 4 samples.

Results

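Adarb1 is the rat gene for ADAR2, an enzyme that edits RNA by turning adenosine into inosine in double-stranded stretches. It was measured by 1 probe set (17754293), a group of probes read as one value, among 36685 probe sets on each of 4 Affymetrix arrays. All rows whose only gene symbol was Adarb1 were taken, which gave 1 gene of the 14557 with a probe set of their own. Adarb1 was chosen by its log2 difference between the glucose groups of these same arrays, so its values are given as a description and without a test. The arrays came from INS-1 cells, an insulin-secreting line from a rat insulinoma that serves as a model of pancreatic beta cells. One group was kept in 22.4 mM glucose for 7 days (n = 2), and the other in 11.2 mM glucose for 7 days (n = 2), and the labels name no altered gene and no other agent in either group. The labels number the arrays of a group 1 and 2 without saying whether separate cultures stood behind them, so p-values measure only array-to-array spread, possibly technical. The purpose in the title is expression under a glucotoxic condition, a prolonged excess of glucose.

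Cells read inosine as guanosine, so that editing in a coding stretch can put another amino acid into the protein. The family has 3 members in mammals. ADAR1, from Adar, edits repeats widely and keeps the cell's own double-stranded RNA from being taken for viral RNA. ADAR2, from Adarb1, is best known for recoding the transcript of the glutamate receptor subunit Gria2 in neurons, and it also edits its own precursor RNA. ADAR3, from Adarb2, binds the same kind of RNA but has shown no editing activity. In islets and in INS-1 cells, ADAR2 is known to be raised by glucose through the kinase JNK1 and its target c-Jun, and its loss in such cells impairs the release of insulin. These arrays measured the amount of RNA. The level of editing was not analysed here.

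Adarb1 signal was several-fold higher in 22.4 mM glucose. On the log2 scale, where 1 unit is a 2-fold step, it was 9.13 and 9.17 on the 22.4 mM arrays, against 7.02 and 7.48 on the 11.2 mM arrays, each pair in the order of replicates 1 and 2. Both 22.4 mM arrays thus lay above both 11.2 mM arrays, and they lay close together, while the 11.2 mM arrays stood further apart. The means were 9.15 ± 0.027 in 22.4 mM and 7.25 ± 0.33 in 11.2 mM (SD, n = 2 each). The log2 difference of the means was 1.90 (SE 0.18), a signal 3.74-fold higher in 22.4 mM. The lowest 22.4 mM array exceeded the highest 11.2 mM array by 1.65, or 3.14-fold, which was 3.58 times the larger of the replicate differences. The replicates differed by 0.038 in 22.4 mM and by 0.46 in 11.2 mM. RNA of whole cultures was measured, so more cells with the transcript and more transcript per cell cannot be told apart.

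**Figure D1:**
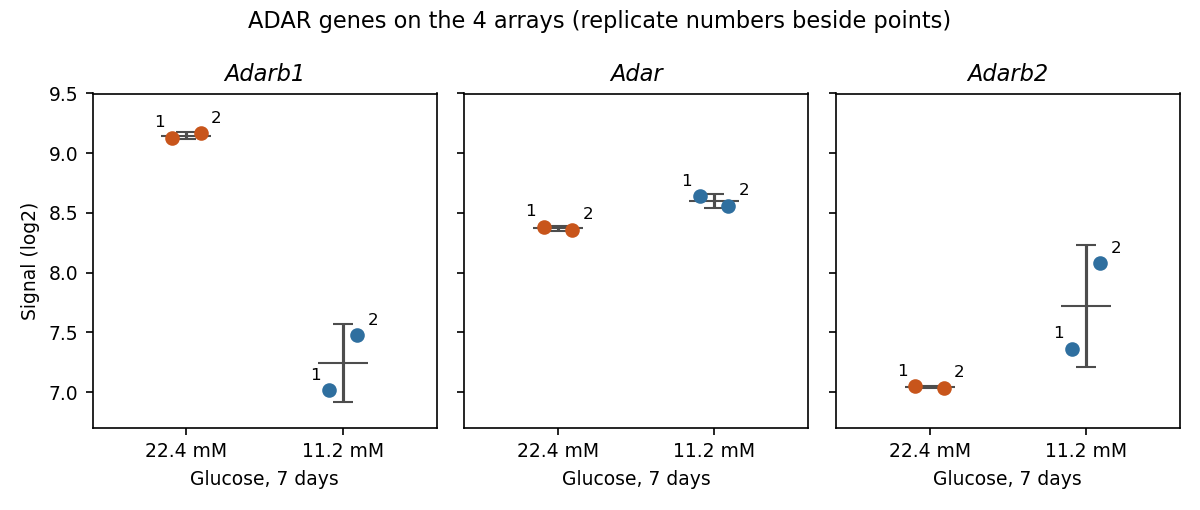
Log2 signal of Adarb1, Adar and Adarb2 on each array (y axis) by glucose group (x axis). Points are arrays with their replicate number, and bars are the group mean ± SD (n = 2); levels of different genes rest on different probes and are not comparable. Adarb1 sits at 9.13 and 9.17 in 22.4 mM, above 7.02 and 7.48 in 11.2 mM, while both arrays of 22.4 mM lie below both of 11.2 mM in Adar and Adarb2.

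Replicate 1 of 11.2 mM stood apart from the other arrays over all probe sets. Its mean absolute log2 difference was 0.246 and 0.242 from the 22.4 mM arrays and 0.213 from its own replicate. The 22.4 mM arrays differed from each other by 0.172. Replicate 2 of 11.2 mM differed by 0.188 and 0.195 from the 22.4 mM arrays, and so lay closer to them than to its own replicate. Replicate 1 of 11.2 mM also held the lowest Adarb1 signal. Without it the Adarb1 difference was 1.67, or 3.18-fold, and without replicate 2 of 11.2 mM it was 2.13, or 4.38-fold. Leaving out replicate 1 or 2 of 22.4 mM gave 1.92 or 1.88. In the 4 pairs of a 22.4 mM array with an 11.2 mM array, the former was higher by 1.65 to 2.15. These pairs reuse the same arrays, and their shared direction follows from the lack of overlap given above.

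On every array Adarb1 was brighter than most probe sets. Its signal exceeded that of at least 72.8% of all probe sets on the array where it was dimmest, and array medians lay between 4.73 and 4.80. No background levels were at hand, so whether a signal stood above background could not be judged. The difference of Adarb1 ranked 6 from the top among the 14557 genes, behind Prok2 (2.67), Kitlg (2.38), Rasgrp2 (2.08), Mid1 (2.07) and S100a4 (2.05). Il17rb (1.88) and Chdh (1.83) came next. These genes were named after their values were seen, to place Adarb1. Its rank was 7 when replicate 1 of 22.4 mM was left out, and 6 in each of the other 9 alternative settings listed at the end. Some of these settings, such as the replicate block, leave every difference of group means unchanged and could not move the rank. Both 22.4 mM arrays lay above both 11.2 mM arrays in 19.6% of all probe sets, and below them in 21.0%.

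**Figure D2:**
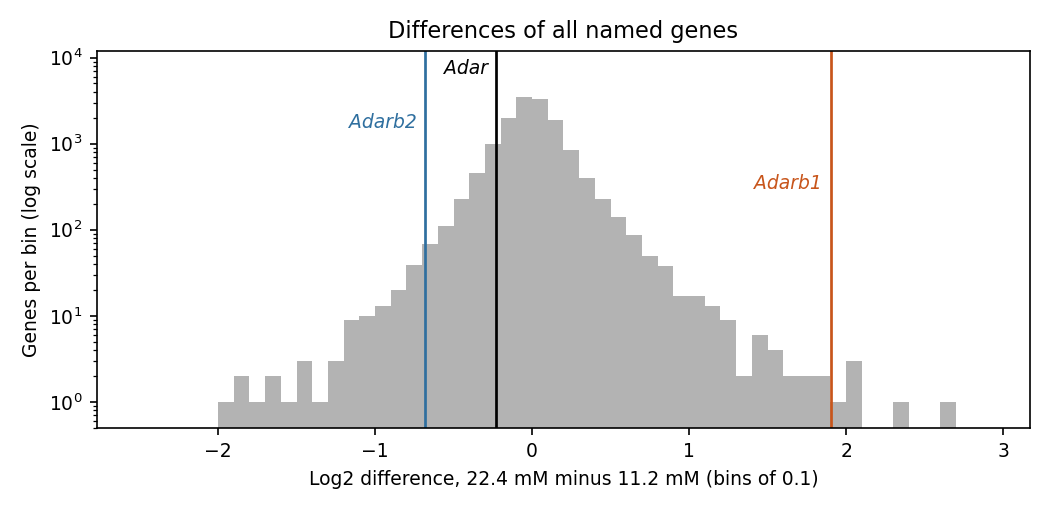
Log2 differences of the 14557 named genes, 22.4 mM minus 11.2 mM (x axis, bins of 0.1), as genes per bin on a log scale (y axis). Vertical lines mark Adarb1 at 1.90, Adar at -0.23 and Adarb2 at -0.68; only 5 genes lie beyond Adarb1 on the right.

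The gene lies on chromosome 20 and has 10 RefSeq transcripts in assembly GRCr8. A single probe set gives 1 value for the gene and does not tell those transcripts apart. The bases before the annotated start are shown because control of the gene by glucose has been described for this cell type; they cover chr20:11221921-11222170 on the + strand (RefSeq, GRCr8), 5′ to 3′, with GC boxes in capitals.
Adarb1 upstream: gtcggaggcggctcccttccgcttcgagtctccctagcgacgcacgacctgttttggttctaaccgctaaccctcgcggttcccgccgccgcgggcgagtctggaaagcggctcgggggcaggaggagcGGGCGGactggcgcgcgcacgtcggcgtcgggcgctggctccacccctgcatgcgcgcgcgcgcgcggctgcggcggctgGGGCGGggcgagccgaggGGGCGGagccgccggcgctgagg
Of these 250 bases, 76.4% were G or C, against a median of 51.2% over 33469 windows of the same length before other annotated starts. The GC box, GGGCGG on either strand, occurred 3 times, and 30.5% of all windows held at least 1. The full cAMP response element TGACGTCA, its shorter form TGACG, the AP-1 site TGANTCA and the E-box CACGTG were not found on either strand. They occurred in 1.59%, 18.2%, 6.34% and 5.59% of all windows. The shorter form lies within the full element, so those shares overlap. A match is a string of letters and not a bound site, binding was not measured here, and other starts of the gene were not searched.

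The other ADAR genes differed in the opposite direction from Adarb1, by smaller amounts that did not pass the test. At an adjusted p of 0.05 (limma, Benjamini-Hochberg over all probe sets), 0 of 36685 probe sets (0%) were called, so no gene tested here passed in that fit. At an unadjusted p under 0.05 there were 3344 (9.12%). A gene that did not pass is not thereby shown to be unchanged, as the few arrays of each group limit the precision. Adar (17740161) had 8.39 and 8.36 on the 22.4 mM arrays, against 8.64 and 8.56 on the 11.2 mM arrays. Its groups did not overlap, and its log2 difference was -0.23, with a 95% interval of the moderated fit from -0.48 to 0.024 (limma adjusted p = 0.574). Adarb2 (17720431) had 7.05 and 7.03 on the 22.4 mM arrays, against 7.36 and 8.08 on the 11.2 mM arrays. Its groups did not overlap either, and its spread within 11.2 mM, 0.72, was no smaller than the difference between the groups. The log2 difference of Adarb2 was -0.68, with an interval from -1.34 to -0.020 (limma adjusted p = 0.539). It was -0.32 with replicate 2 of 11.2 mM left out, and -1.04 with replicate 1 left out. Over the alternatives the adjusted p ranged from 0.368 to 0.948 for Adar and from 0.308 to 0.920 for Adarb2.

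The remaining adenosine deaminases of RNA and their relatives differed little. Adat1, Adat2 and Adat3 act on transfer RNA, and Adad1 and Adad2 are relatives expressed in testis. Together with Adar and Adarb2 these made 7 genes, all measured, of which 6 had negative differences, 5 of them without overlap. That is 71.4% without overlap, against 44.6% of all 14557 genes and 40.6% of all probe sets. Their median log2 difference was -0.12, against -0.0038 over all genes. Leaving out replicate 1 of 22.4 mM gave -0.068, and leaving out replicate 2 of 11.2 mM gave -0.22. Adad2 (17730555) had 4.53 and 4.46 on the 22.4 mM arrays, against 4.84 and 4.67 on the 11.2 mM arrays, close to the median of all probe sets and not shown to be above background. Adat1 (17733755), which edits the transfer RNA for alanine, differed by -0.12 (SE 0.10). The highest difference in this list was 0.018, for Adat2. The enzymes that deaminate cytidine, a separate family that includes the apolipoprotein B mRNA editing enzyme Apobec1, had 5 of 8 members measured. In 0 of the 5 did the groups lack overlap, against 44.6% of all genes, and differences ran from -0.17 (Apobec3) to 0.020 (Apobec4), with -0.089 for Apobec2 and -0.073 for Apobec1. The Apobec3 difference was -0.34 or -0.0013 with replicate 1 or 2 of 22.4 mM left out. Of the 5, 4 averaged below the median signal of all probe sets.

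Transcripts with known recoding sites in mammals had small differences as a group. Of 22 listed, 14 were measured, and Gria2 and Cacna1d were among those not analysed here. The median log2 difference was -0.051, with 4 positive and 10 negative, and the groups did not overlap in 7, or 50%, against 44.6% of all genes. By the test 0 passed in either direction. Neil1 (17852874), a DNA repair glycosylase whose human transcript is edited by ADAR1, had 4.98 and 5.25 on the 22.4 mM arrays, against 5.64 and 5.48 on the 11.2 mM arrays. That was a difference of -0.45 (SE 0.14, limma adjusted p = 0.471) without overlap of the groups. Blcap (17778922), whose transcript is recoded near its start, had 7.30 and 7.39 in 22.4 mM, against 7.61 and 7.66 in 11.2 mM, a difference of -0.29 (SE 0.098, limma adjusted p = 0.504). Cadps (17697541), a priming factor of dense-core granules, had 8.82 and 8.80 in 22.4 mM, against 9.05 and 8.92 in 11.2 mM, a difference of -0.18 with an interval from -0.45 to 0.089. Igfbp7 (17689286), a secreted binding protein, differed by 0.16 (SE 0.10). The remaining 10 lay between -0.13 and 0.15, among them the receptor subunit Gabra3 with -0.068 and the actin regulator Cyfip2 with 0.0036.

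Genes for proteins that act on ADAR2 or on its gene likewise had small differences, with 9 of 11 measured and a median log2 difference of 0.056. No member was past the threshold, and the groups did not overlap in 4 higher and 1 lower, or 55.6%, against 44.6% of all genes. With replicate 2 of 11.2 mM left out the median was 0.10. Kpna3 (17703605) and Kpna1 (17669356), importins of the kind that carries ADAR2 into the nucleus, differed by 0.17 (SE 0.095) and 0.16 (SE 0.11). Dhx15 (17690194), a helicase that restrains editing by ADAR2, differed by 0.17 (SE 0.095). Wwp2 (17729845), the ubiquitin ligase that marks ADAR2 for breakdown, averaged 7.94 ± 0.014 in 22.4 mM and 8.07 ± 0.10 in 11.2 mM (SD, n = 2 each), a difference of -0.13 with an interval from -0.40 to 0.15. The RNA of transcription factors said to drive Adarb1 differed, in the brightest probe set of each, by no more than the spread of replicates. The activity of these proteins was not measured. Jun (17808683) had 6.92 and 7.18 on the 22.4 mM arrays, against 7.48 and 6.79 on the 11.2 mM arrays. The groups overlapped, and the interval of its difference of -0.083 reached from -0.75 to 0.59. Creb1 (17859940), which drives the gene in neurons, differed by -0.025, with an interval from -0.28 to 0.23. Its dimmer probe set (17859930) differed the other way, by 0.15. Mapk8, the gene of JNK1, was not analysed here.

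**Figure D3:**
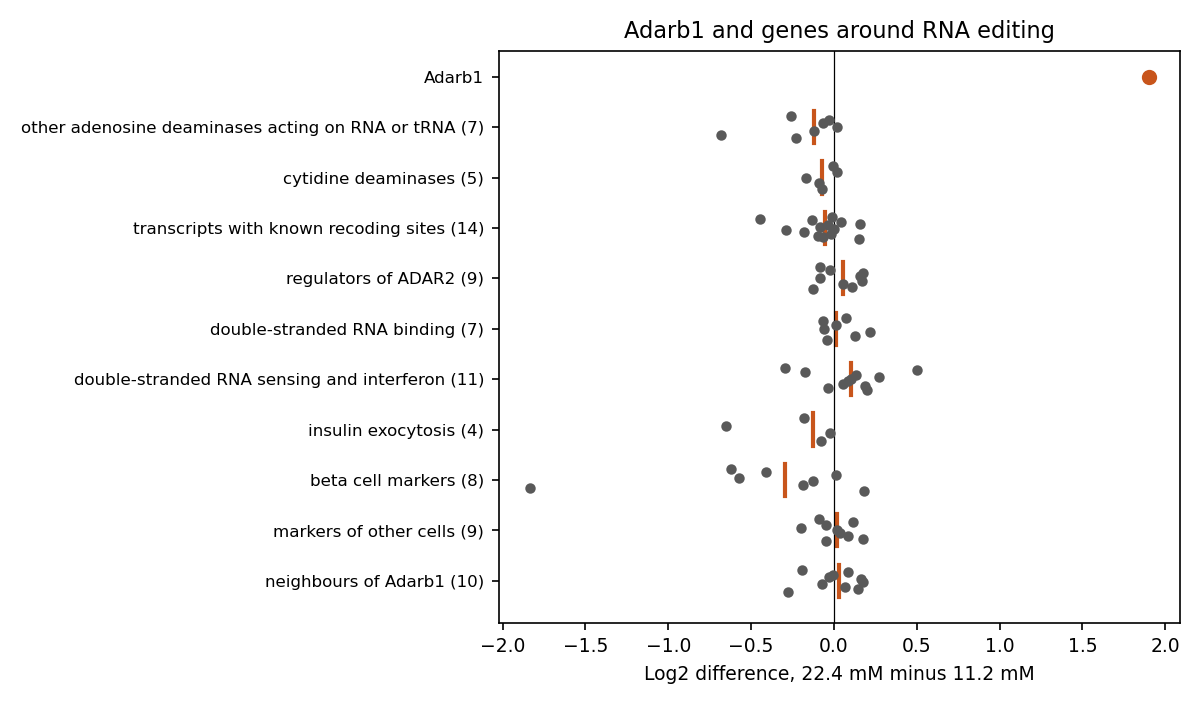
Log2 difference, 22.4 mM minus 11.2 mM (x axis), for Adarb1 and for each measured gene (points) of 10 gene lists (y axis, number of genes in brackets), with the list median as a vertical bar. Adarb1 lies at 1.90, and the highest point of any list is Irf7 at 0.50; the lowest is Ins2 at -1.84.

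Genes that bind or sense double-stranded RNA, the substrate of the ADAR enzymes, did not pass the test either. Of 15 binding proteins 7 were measured, with a median log2 difference of 0.011. Prkra (17773400), which activates the kinase PKR, differed by 0.22 (SE 0.12), the microRNA processing factor Dgcr8 (17667001) by 0.13 (SE 0.11), Cdkn2aip by 0.070 (SE 0.17) and Strbp by -0.066 (SE 0.10). With single arrays left out, Prkra ranged from 0.095 to 0.34 and Dgcr8 from 0.035 to 0.22. Of the sensing and interferon list, 11 genes were measured, with a median of 0.10. Among these 8 were positive, the groups lacked overlap in 5 higher and 2 lower, or 63.6%, against 44.6% of all genes, and 5 averaged below the median signal. Irf7 (17638314), a factor that drives interferon genes, had 5.90 and 6.24 in 22.4 mM, against 5.33 and 5.80 in 11.2 mM. That was a difference of 0.50 with an interval from -0.045 to 1.05 (limma adjusted p = 0.569), and it ranged from 0.27 to 0.74 with single arrays left out. Stat2 (17825596), which carries the interferon signal, had 7.36 and 7.31 in 22.4 mM, against 7.65 and 7.61 in 11.2 mM, a difference of -0.30 (SE 0.095, limma adjusted p = 0.480). The interferon-induced Ifit3 differed by 0.27 (SE 0.12), and Ifih1, the sensor MDA5 that ADAR1 keeps quiet, by 0.20 (SE 0.18). The Ifih1 difference ranged from 0.029 to 0.37 with single arrays left out.

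In INS-1 cells, less ADAR2 has been described to go with less synaptotagmin-7, the product of Syt7. Syt7 (17624015), a calcium sensor of granule release, had 10.24 and 10.13 in 22.4 mM, against 10.23 and 10.28 in 11.2 mM. The groups overlapped, and its difference was -0.076 with an interval from -0.34 to 0.19. Of 10 exocytosis genes 4 were measured and all 4 had negative differences, with a median of -0.13 and no overlap in 2, or 50%, against 44.6% of all genes, of which 51.1% had negative differences. The largest was that of Rab27a (17845817), which docks insulin granules, with 7.89 and 7.97 in 22.4 mM, against 8.59 and 8.57 in 11.2 mM. Its difference was -0.65 (SE 0.096), with a limma adjusted p of 0.255 that ranged from 0.0603 to 0.827 over the alternatives. Cadps, described above, also belongs here, and the priming factor Unc13a differed by -0.021 (SE 0.15).

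Markers of the labelled cell type were bright on all arrays. The 8 beta cell markers measured of 12 had signals from 6.79 to 12.57, all above the median of all probe sets, with Iapp, Slc2a2 and Pcsk2 among them. Of 9 measured markers of other cells, the glucagon gene Gcg, a marker of alpha cells, was bright at 11.14 and 11.08 in 22.4 mM and at 11.24 and 11.07 in 11.2 mM. The collagen gene Col1a1 lay at 5.22 to 5.50, a little above the median signal, and the other 7 averaged below it. The summed log2 signal of the beta cell markers ran from 78.5 to 78.9 in 22.4 mM, against 81.8 to 82.7 in 11.2 mM. That of the other markers ran from 44.3 to 44.7 in 22.4 mM, against 44.2 to 44.7 in 11.2 mM. Of the 8 beta cell markers, 6 had negative and 2 positive differences, with no overlap between groups in 7, or 87.5%, against 44.6% of all genes. None passed the test. Ins2 had a difference of -1.84, Kcnj11 -0.62, Mafa -0.57 and Pcsk2 -0.41, while Ins1 had 0.18. The limma adjusted p of Ins2 was 0.218, and 0.0102 in the alternative fit of probe sets with 1 gene symbol, which it passed. With single arrays left out, Mafa ranged from -0.77 to -0.37 and Ins1 from 0.094 to 0.27. The part of these shifts in the Adarb1 difference was not tested.

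The 8 genes whose values were most like those of Adarb1 were all higher in 22.4 mM by a similar amount. Likeness was the root mean square difference between the 4 array values of each gene after its own mean was subtracted, over the 4 arrays and all probe sets with 1 gene symbol. It was smallest for Il17rb (0.0668), a receptor subunit for interleukin 17 family cytokines, and Chdh (0.0806), the choline dehydrogenase of mitochondria. Then came the potassium channel subunit gene Kcnab3 (0.101), the melanocortin receptor accessory protein gene Mrap2 (0.106) and the scaffold gene Cnksr2 (0.185). S100a4 (0.189), the sodium/proton exchanger gene Slc9b2 (0.190) and the adenosine receptor gene Adora2b (0.222) completed the set. Over all genes the median of this measure was 0.970.

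Il17rb (17709688) had 8.54 and 8.74 on the 22.4 mM arrays, against 6.58 and 6.94 on the 11.2 mM arrays. Chdh (17705940) had 8.61 and 8.56 in 22.4 mM, against 6.44 and 7.08 in 11.2 mM. In both genes, as in Adarb1, replicate 1 of 11.2 mM was the lowest array. That order of the 11.2 mM replicates held in all 8 genes and in 51.3% of all genes, but the measure of likeness itself favours it. Kcnab3 (17647444) had 8.29 and 8.37 in 22.4 mM, against 6.40 and 6.86 in 11.2 mM. Mrap2 (17846431) had 7.97 and 8.01 in 22.4 mM, against 5.98 and 6.57 in 11.2 mM. The fold differences of the 8 genes ran from 2.83 for Adora2b to 4.13 for S100a4, whose 11.2 mM signals of 4.73 and 4.74 lay just below the median of all probe sets. As the genes were chosen for these values, they received no test.

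**Figure D4:**
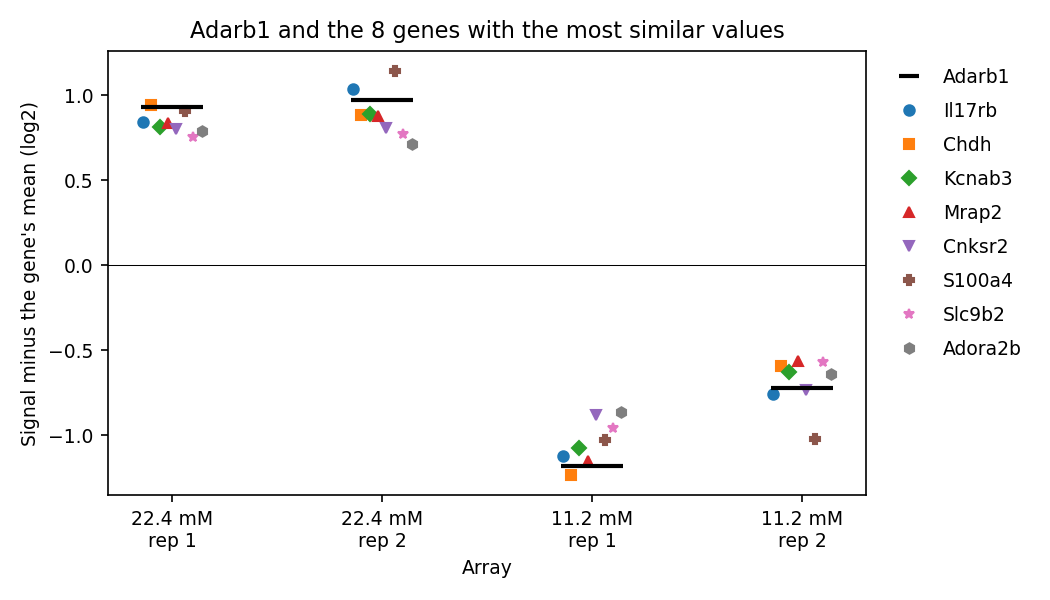
Log2 signal minus each gene's own mean over the 4 arrays (y axis) on each array (x axis), for Adarb1 (black bars) and the 8 genes with the smallest root mean square difference from it (symbols). All lie above 0 on the 22.4 mM arrays and below 0 on the 11.2 mM arrays, and all are lower in replicate 1 than in replicate 2 of 11.2 mM.

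The measured genes nearest to Adarb1 on chromosome 20 did not share its difference in size. The 5 nearest measured genes on either side, in the order of the RefSeq table, spanned 34 genes of that table, 18 of them protein-coding. Their log2 differences ran from -0.27 to 0.17 with a median of 0.031, 5 positive and 5 negative. The groups lacked overlap in 2, both lower, or 20%, against 44.6% of all genes. On the side of the promoter lay the integrin gene Itgb2 (0.17), Pttg1ip (-0.073), the ubiquitin-like modifier gene Sumo3 (0.065), the ubiquitin-conjugating enzyme gene Ube2g2 (0.15) and the keratin-associated protein gene Krtap10-9 (-0.27). On the other side lay the collagen genes Col6a1 (0.16) and Col6a2 (-0.030), the folate enzyme gene Ftcd (-0.0028), Spatc1l (0.083) and Mcm3ap (-0.20). None passed the test, the smallest limma adjusted p being 0.678. Several genes in between carried no probe set of their own name, among them all those from Itgb2 to Adarb1 and from Adarb1 to Col6a1. Itgb2 lay 6 places and Col6a1 12 places from Adarb1 in that order, so no directly adjacent gene was covered.

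**Figure D5:**
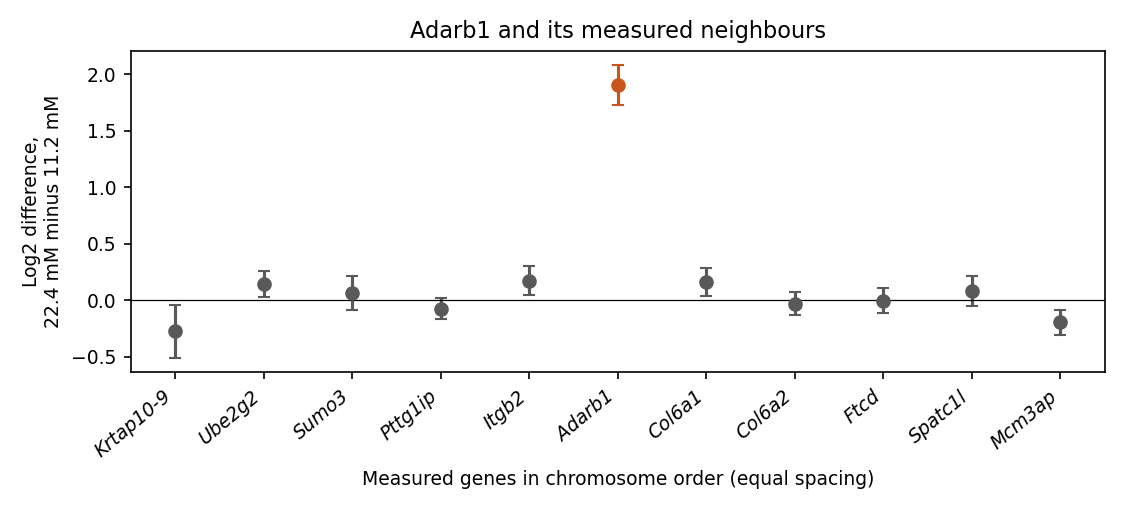
Log2 difference, 22.4 mM minus 11.2 mM (y axis), of Adarb1 and its 5 nearest measured genes on either side (x axis, in chromosome order with equal spacing). Points are differences of group means and bars ± SE of the limma fit; Adarb1 lies at 1.90 and its neighbours between -0.27 and 0.17.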

How the data were processed

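Per the labels' protocols, total RNA was purified on columns, amplified, and put on the arrays as fragmented, biotin-labelled cDNA. The authors deposited 1 log2 signal per probe set and array. Base 2 was inferred from the range, 2.23 to 13.21. The steps and software behind these values were not stated in the labels. The values were used as deposited. Probe sets were named from the platform annotation (14824 with 1 gene symbol, 14557 genes), and of several the brightest was used. Promoter sequence and gene order came from RefSeq (GRCr8), used for no array position.

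All 36685 probe sets were fitted with limma 3.58.1 in R 4.3.3 (lmFit, eBayes, two-sided, 2 residual degrees of freedom, Benjamini-Hochberg over all probe sets). Adarb1 was given no p-value. Adarb1, the gene lists and the rule for named genes were chosen with earlier results of these data known. That rule took the ADAR genes, the 4 largest differences of each list, a fixed set of genes tied to ADAR2 or insulin, 5 measured neighbours on each side and the 8 genes most like Adarb1. The code was tested on simulated data with a spread drawn from the fitted model. There the fit called 3 of 100 changes of 1 log2 unit and 81 of 100 changes of 2 log2 units, with 8 false calls. In the real data it called 0 probe sets, so these counts do not give its power there. The number of arrays limits the precision.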

Additional observations from a re-analysis of the deposited data

How the results depend on the processing

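The Adarb1 difference lay between 1.90 and 1.91 in the 6 settings that kept all arrays. These were quantile normalization, centred array medians, probe sets with 1 gene symbol and the brighter part of the probe sets. The others were a trended robust variance and the replicate block. Only quantile normalization and centred medians could move the Adarb1 difference, as the rest leave the group means as they are. It lay between 1.67 and 2.13 without 1 array. Averaging several probe sets of a gene could not be applied to Adarb1, Adar or Adarb2, which have 1 each. The differences of Adar (-0.27 to -0.19 without 1 array) and Adarb2 (-1.04 to -0.32) kept their sign and passed in no setting. Limma called 0 probe sets in every setting but 1: with the 14824 probe sets of 1 gene symbol it called 62, 43 higher and 19 lower, and Ins2 was among them (adjusted p = 0.0102). The cause was not tested. The labels do not say that same-numbered arrays shared a culture or day, so the numbers were not taken as pairs. Same-numbered arrays deviated from their group means with a correlation of -0.078. With the replicate block 0 were called and 2958 had an unadjusted p under 0.05, against 3344 without it. Leaving out single arrays gave 5709 such probe sets for replicate 2 of 11.2 mM and 2114 for replicate 2 of 22.4 mM.

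List medians are small and moved with single arrays. Without 1 array they ran from -0.22 to -0.068 for adenosine deaminases, -0.081 to -0.027 for cytidine deaminases, -0.059 to -0.023 for recoded transcripts, 0.041 to 0.10 for regulators of ADAR2, -0.35 to -0.25 for beta cell markers, -0.012 to 0.013 for binding of double-stranded RNA, 0.086 to 0.11 for its sensing, -0.19 to -0.096 for exocytosis, 0.0079 to 0.043 for markers of other cells and -0.031 to 0.022 for neighbours. Quantile normalization gave -0.099 for adenosine deaminases and -0.016 for binding. Centred medians gave -0.043 for recoded transcripts and 0.028 for other markers. With dim probe sets left out, the medians were -0.068 for recoded transcripts, 0.075 for sensing, -0.068 for other markers and -0.016 for neighbours. The sign is not settled for these genes, whose differences without 1 array ran from -0.15 to 0.00085 for Apobec1, -0.21 to 0.032 for Apobec2, -0.044 to 0.083 for Apobec4, -0.14 to 0.29 for Cdkn2aip, -0.19 to 0.15 for Unc13a, -0.22 to 0.046 for Col1a1, -0.56 to 0.012 for Krtap10-9, -0.11 to 0.24 for Sumo3, -0.091 to 0.031 for Col6a2, -0.085 to 0.079 for Ftcd, -0.036 to 0.20 for Spatc1l, -0.061 to 0.011 for Creb1 and -0.43 to 0.26 for Jun. Ftcd also had 0.016 after quantile normalization and 0.0059 with centred medians. In another 23 of the named genes the sign held but the difference moved by over 1.5 times when 1 array was left out. Adarb2, whose range is given above, also moved by over 1.5 times and is not in that count. The cause of these moves was not tested.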
